A study of Homo sapiens with 22 samples.

Results

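The SMADs and the feedback genes of the TGF-β pathway were described in 2 melanoma cell lines as 10 genes: PMEPA1, SKIL, SKI, SMAD7, SMAD6, SMURF2, BAMBI, SMAD2, SMAD3 and SMAD4. Members were chosen by symbol, and by their levels across clusters and treatments of these same cells, most of all TGFB1 against the TGF-β receptor inhibitor. Each of the 10 symbols had 1 row in the table of untreated WM989, which holds 33538 genes, and in those of WM983B and of treated WM989, which hold 36601 genes each. Values of the 10 genes by state, cluster and treatment are therefore given as description. Counts of the 10 past the threshold of edgeR stand beside the share of all genes, and nothing is read from them. Tests are read for the other genes of the pathway and for ATAC-seq, whose values did not enter the choice of the 10. The lists of the other genes were themselves chosen with earlier results of these data known.

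TGF-β and activin bind receptor kinases at the cell surface, which phosphorylate SMAD2 and SMAD3. These pair with SMAD4 and enter the nucleus, where they act with other factors on target genes. Among the genes switched on are brakes of the pathway itself, and in melanoma the pathway is known for its part in dedifferentiation and in tolerance of BRAF inhibitors.

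WM989 and WM983B are human melanoma lines, here as clones grown from a single cell, so that each line stands for 1 clone. The treatment experiment grew lentivirally barcoded WM989 cells for 5 days under 4 treatments. These were untreated (Control), 5 ng/mL recombinant TGFB1, 4 uM of the TGFBR1/2 inhibitor LY2109761 (TGFBRi) and 2 uM of the PI3K inhibitor GDC-0941 (PI3Ki). Each had 2 libraries, named r1 and r2 in the cell labels. The treatment labels of the samples call 1 of the 2 Mix (as in MixControl) and the other Primed (as in PrimedControl). Which of them is r1, and whether the 2 started from different cells, is not given. Untreated barcoded WM989 cells, sorted as a mixed population or as EGFR- and NGFR-high cells and then expanded, were profiled in 8 wells, and untreated WM983B cells in 1 library, all by droplet single-cell RNA sequencing. ATAC-seq, which reads how open chromatin is, covered untreated WM989 cells sorted as EGFR_High, NGFR-High, EGFR-NGFR-High or Mix (negative for both markers per the methods), with 3 libraries a sort. The labels of the wells do not name their sort, and the methods split each sorted population over wells, so the 8 wells are not 8 separate cultures.

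The treatment experiment held 40021 cells, with 3692 to 6273 cells and 70239657 to 122420544 unique molecular identifiers (UMIs) a library, untreated WM989 held 12531 cells, and WM983B held 1449. Drug-susceptible and primed are the states that the authors gave each cell, primed cells being those more likely to survive BRAF inhibition. Melanocytic markers summed to between 1490 and 6544 CPM (UMIs scaled to a library total of 1e+06) over all libraries and wells, fibroblast markers to between 20.8 and 93.8 CPM, mostly LUM or PDGFRA, and leukocyte and epithelial markers to less than 1 CPM, with the T cell gene CD3E at 0 outside untreated WM989 and the keratin KRT5 at 0 throughout. The melanocytic sum was 3509 and 3760 CPM with TGFB1 against 5037 and 5051 CPM in Control, and endothelial markers, mostly PECAM1, were at 3.63 and 2.81 CPM against 0.679 and 0.611 CPM. Over the wells of untreated WM989 the endothelial markers summed to between 1.42 and 21.7 CPM. The 4 primed markers summed to 20.1 CPM in Control r1 and 40.3 CPM in Control r2. In the same order they were at 52.9 and 78.3 CPM with TGFB1, and at 18.4 and 36.2 CPM with TGFBRi. With PI3Ki they were at 11.8 and 22.7 CPM, so r2 was the higher under every treatment. The part of these marker differences in the results was not tested. Cell barcodes, which mark the droplet and not the lentiviral lineage, had the same sequence in 2 or more cells for 194 sequences in the treatment experiment and 19 in untreated WM989. Lineage barcodes were not used here.

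PMEPA1 (ENSG00000124225, chr20:57648392-57711536 on hg38, minus strand) encodes a membrane protein that holds SMAD2 and SMAD3 away from the receptor. Its level, summed over all cells of a library, was 4.79 and 6.56 CPM in Control (r1 and r2). With TGFB1 it was 384 and 382 CPM, and with TGFBRi 0.848 and 1.34 CPM, from 70 and 117 UMIs. PI3Ki left it at 2.93 and 4.17 CPM. The 4 treatments did not overlap, and the order TGFB1, Control, PI3Ki and TGFBRi from high to low held in both replicates. The log2 fold change was 6.08 ± 0.12 (SE) for TGFB1 against Control, a 67.6-fold difference, and −2.35 ± 0.16 for TGFBRi against Control. TGFB1 and TGFBRi stood 8.43 ± 0.14 apart on the log2 scale, or 345-fold. A sum over a library cannot tell fewer cells of a type from less RNA per cell, and primed cells made up 29.1% and 31.3% of the TGFB1 libraries against 2.26% and 4.47% of Control. NKILA, a long noncoding RNA on the opposite strand, lies over the start of PMEPA1, and whether counting used strand is not given in the sources used here.

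The sequences shown here come from the PMEPA1, SMAD6 and SMAD7 loci, were chosen because they hold matches to short motifs, and carry those matches in capitals, for 3 motifs searched. CAGAC (or GTCTG on the other strand) is the short element that SMAD3 and SMAD4 can bind, GTCTAGAC is a longer palindrome that they bind more tightly, and TGANTCA is the site of AP-1. GTCTAGAC holds neither CAGAC nor GTCTG, so the motifs were counted apart. The first window, of 300 bases, lies at the summit of an open region in intron 1 of PMEPA1, 24.7 kb downstream of its start (chr20:57685295-57685594 on hg38), and is written on the strand of the gene. It held 1 GTCTAGAC and 4 CAGAC or GTCTG.
PMEPA1 +24.7 kb: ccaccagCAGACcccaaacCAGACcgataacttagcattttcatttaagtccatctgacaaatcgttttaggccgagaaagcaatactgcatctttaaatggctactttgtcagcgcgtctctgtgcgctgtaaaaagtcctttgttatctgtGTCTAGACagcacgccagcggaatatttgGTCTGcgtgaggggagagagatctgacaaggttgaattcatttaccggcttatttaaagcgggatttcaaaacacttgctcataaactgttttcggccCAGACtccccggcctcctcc
Of 78211 windows of 300 bases around the summits of open regions, 49.3% held CAGAC, 0.201% held GTCTAGAC and 20.1% held TGANTCA, on either strand. The 250 bases before the start of SMAD6 (chr15:66701986-66702235, RefSeq on GRCh38.p14, plus strand) held 1 GTCTAGAC near their end, and those before SMAD7 (chr18:48950966-48951215, minus strand) held 2 CAGAC or GTCTG. The 3 windows printed here held 0 matches to TGANTCA. Of the windows at other open regions described here, that of SMAD3 at 44.1 kb held 0 matches to any of the motifs, and that of SMAD7 at 21.9 kb held 2 CAGAC or GTCTG.
SMAD6 promoter: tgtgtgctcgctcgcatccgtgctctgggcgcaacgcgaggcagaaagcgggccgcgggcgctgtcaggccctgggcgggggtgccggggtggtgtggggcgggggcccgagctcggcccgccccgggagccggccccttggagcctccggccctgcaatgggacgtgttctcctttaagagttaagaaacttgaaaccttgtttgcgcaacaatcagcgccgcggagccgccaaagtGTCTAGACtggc
SMAD7 promoter: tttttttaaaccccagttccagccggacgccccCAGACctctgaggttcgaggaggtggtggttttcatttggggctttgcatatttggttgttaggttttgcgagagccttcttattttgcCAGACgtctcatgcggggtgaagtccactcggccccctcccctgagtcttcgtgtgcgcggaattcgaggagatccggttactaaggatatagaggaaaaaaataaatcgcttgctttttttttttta
Over 35097 promoters of 250 bases, CAGAC was in 38.0%, GTCTAGAC in 0.182% and TGANTCA in 6.57%. The promoters of PMEPA1, SMAD2, SMAD3, SMAD4 and SMURF2 at their main starts held none of the 3 motifs, which says only that these letters are not in those windows. Those of SKIL and BAMBI held 1 and 2 CAGAC or GTCTG and neither other motif, and SKI had no promoter window in the set used. A match is not shown to be a bound site.

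SKIL (ENSG00000136603, chr3:170357342-170396835, plus strand) and SKI (ENSG00000157933, chr1:2227388-2310213, plus strand) encode related corepressors that bind SMADs and hold their targets silent. SKIL was at 4.25 and 5.96 CPM in Control, 50.004 and 57.6 CPM with TGFB1 and 1.08 and 1.89 CPM with TGFBRi. As with PMEPA1, the TGFB1 libraries were above and the TGFBRi libraries below all others, and PI3Ki, at 4.77 and 6.37 CPM, overlapped Control. Its log2 fold change against Control was 3.397 ± 0.095 with TGFB1 and −1.76 ± 0.13 with TGFBRi. SKI was expressed throughout, at 20.8 CPM in both Control libraries, 33.1 and 35.7 CPM with TGFB1 and 18.2 and 17.5 CPM with TGFBRi. The same order held at a much smaller size, with a log2 fold change of 0.71 ± 0.07 for TGFB1 and −0.20 ± 0.07 for TGFBRi.

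SMAD7 (ENSG00000101665, chr18:48919853-48950965, minus strand) encodes the inhibitory SMAD that blocks the TGF-β receptor. It was at 6.52 and 7.73 CPM in Control, 32.8 and 37.2 CPM with TGFB1 and 4.74 and 6.19 CPM with TGFBRi. The TGFB1 libraries stood apart by a log2 fold change of 2.29 ± 0.08, whereas TGFBRi was lower than Control by less, at −0.37 ± 0.09. SMAD6 (ENSG00000137834, chr15:66702236-66782849, plus strand) encodes the inhibitory SMAD that acts mostly on BMP signalling, and was near the lower end of what these libraries count. It was at 0.551 and 0.723 CPM in Control from 43 and 58 UMIs, at 1.06 and 1.23 CPM with TGFB1, and at 0.242 and 0.252 CPM with TGFBRi from 20 and 22 UMIs. The 3 groups did not overlap, and TGFBRi differed from Control by more (−1.35 ± 0.26 on the log2 scale) than TGFB1 did (0.83 ± 0.19).

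SMURF2 (ENSG00000108854, chr17:64542282-64662307, minus strand) encodes a ubiquitin ligase that marks SMADs and, through SMAD7, the receptor for degradation. It was at 12.9 and 15.6 CPM in Control and 60.2 and 63.5 CPM with TGFB1, a log2 fold change of 2.104 ± 0.07. TGFBRi, at 13.2 and 13.8 CPM, lay within the range of Control. BAMBI (ENSG00000095739, chr10:28677510-28682932, plus strand) encodes a decoy receptor without a kinase, and differed little when all cells were summed. It was at 35.5 and 40.3 CPM in Control, 40.4 and 40.5 CPM with TGFB1 and 34.8 and 34.9 CPM with TGFBRi, and its log2 fold changes were 0.08 ± 0.08 and −0.10 ± 0.08.

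The 3 SMADs that carry the signal differed little between TGFB1 and Control. SMAD2 (ENSG00000175387, chr18:47808957-47931146, minus strand) was at 41.3 and 42.0 CPM in Control, 37.3 and 43.7 CPM with TGFB1 and 42.7 and 40.9 CPM with TGFBRi. SMAD4 (ENSG00000141646, chr18:51028528-51085045, plus strand), the common partner, was at 34.6 and 37.7 CPM in Control, 39.9 and 42.9 CPM with TGFB1 and 34.9 and 34.1 CPM with TGFBRi. The groups of SMAD2 overlapped, and those of SMAD4 did so except for TGFB1, which was higher by 0.18 ± 0.06 on the log2 scale. SMAD3 (ENSG00000166949, chr15:67063763-67195173, plus strand) was at 16.3 and 15.3 CPM in Control, 16.3 and 16.2 CPM with TGFB1 and 21.2 and 18.6 CPM with TGFBRi. It was higher with TGFBRi than with Control, by 0.345 ± 0.07, and lower with TGFB1 than with TGFBRi, by −0.32 ± 0.07.

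**Figure D1:**
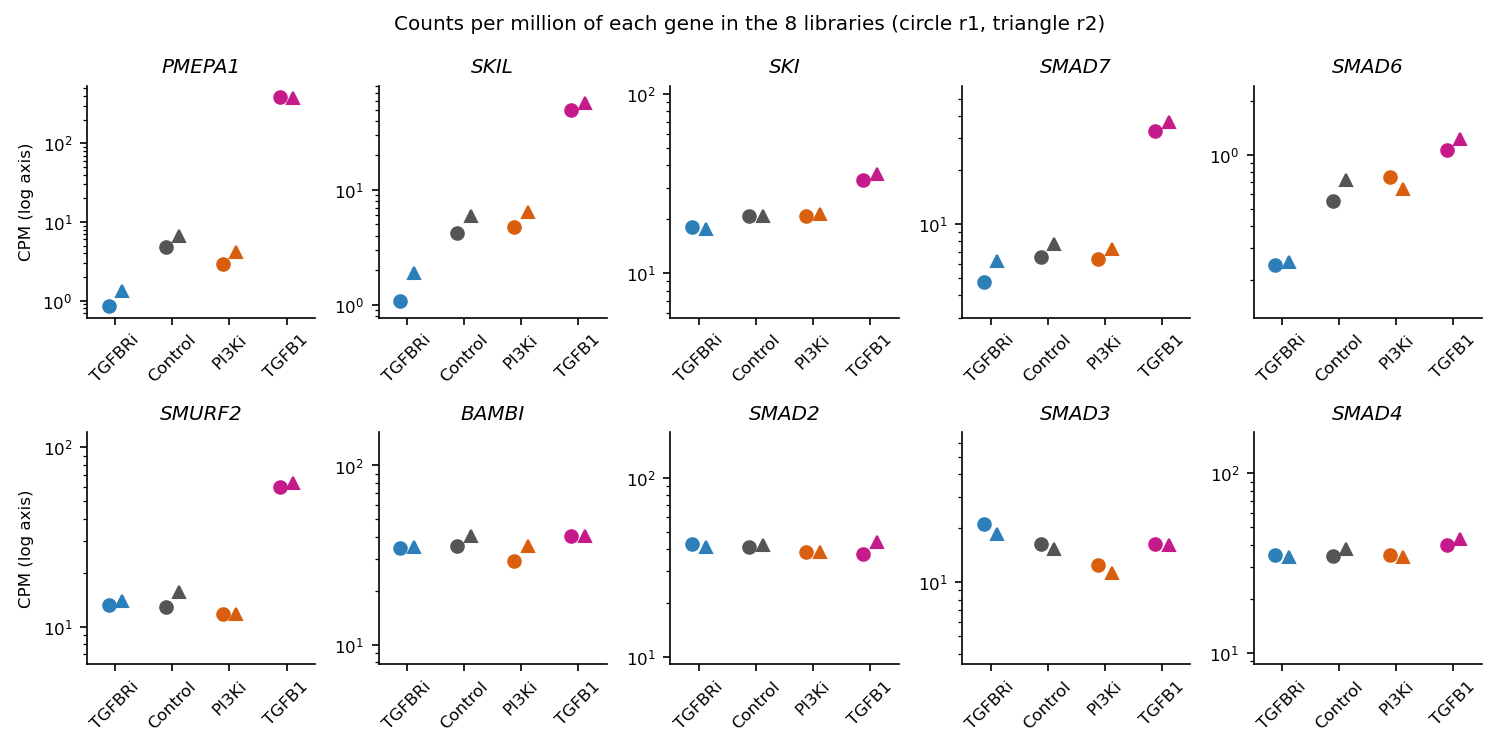
Level of each of the 10 genes in the 8 libraries of the treatment experiment, in CPM on a log axis, with a circle for r1 and a triangle for r2. PMEPA1 runs from 0.848 to 384 CPM, and the TGFB1 libraries are above the other 6 for PMEPA1, SKIL, SKI, SMAD7, SMAD6, SMURF2, SMAD4 and, by less than 1 CPM, BAMBI.

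Counted by edgeR's quasi-likelihood test with Benjamini-Hochberg adjustment at 0.05, 7 of the 10 genes were past the threshold for TGFB1 against Control, all 7 higher, where 29.0% of 18389 genes were past it (16.3% higher and 12.7% lower). For TGFBRi, 5 of 10 were past it, 4 lower and 1 higher, where 2.54% of all genes were (1.09% higher and 1.45% lower). The 5 became 2 without the replicate term or without Control r2 and 3 without Control r1, and PMEPA1 and SKIL were the 2 that stayed. The median log2 fold change of the 10 genes was 0.77 with TGFB1 and −0.15 with TGFBRi, beside 0.006 and 0.003 over all genes tested. Nothing is read from these counts and medians, since these contrasts chose the genes. The comparisons also share the Control libraries. In TGFB1 against TGFBRi, 8 of the 10 genes were higher with TGFB1, and SMAD2 and SMAD3 were lower, SMAD2 by −0.08, which became 0.01 without TGFB1 r1. From this count too nothing is read, and the share of all genes higher in that contrast was not counted.

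**Figure D2:**
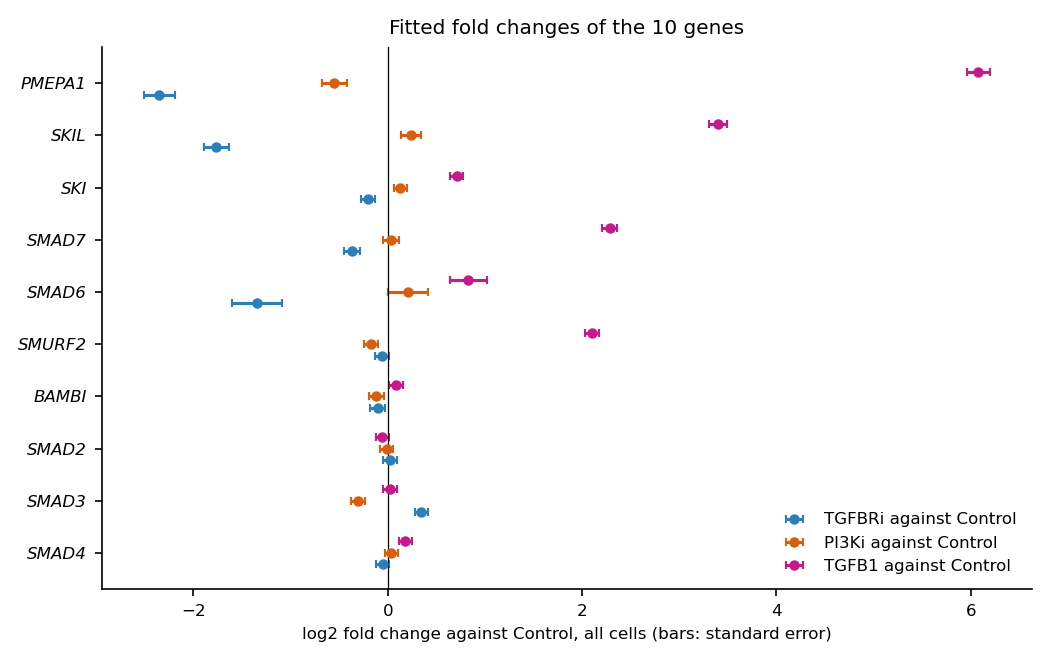
Log2 fold change of each gene against Control in sums over all cells, for TGFB1, TGFBRi and PI3Ki, with bars for the standard error. PMEPA1 reaches 6.08 with TGFB1 and −2.35 with TGFBRi, while SMAD2, SMAD4 and BAMBI stay within 0.2 of 0.

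Within the drug-susceptible cells alone, as the authors classed them, the levels of the treatments lay apart as well. These cells were not spread alike over the clusters: cluster 3, all drug-susceptible, held 2182 and 1619 of the 3842 and 3858 such cells with TGFB1 and 56 and 59 of the 4058 and 3527 in Control, and the part of this in the values was not tested. PMEPA1 was at 3.58 and 4.45 CPM in Control, 138 and 108 CPM with TGFB1 and 0.728 and 0.960 CPM with TGFBRi. Its log2 fold change with TGFB1 was 4.93 ± 0.13, or 30.4-fold, smaller than over all cells but in the same order. SKIL was at 4.03 and 5.38 CPM in Control, 31.2 and 33.8 CPM with TGFB1 and 0.9999 and 1.68 CPM with TGFBRi. SMAD7 rested at 6.27 and 7.11 CPM in Control and reached 15.1 and 16.3 CPM with TGFB1, a log2 fold change of 1.22 ± 0.09 in place of 2.29 over all cells. The value of SMURF2 was 1.27 ± 0.07 in place of 2.104. SMAD3 was lower with TGFB1 (13.4 and 12.8 CPM) than in Control (16.1 and 15.2 CPM), by −0.27 ± 0.07, and BAMBI was higher (46.9 and 46.9 CPM against 35.7 and 40.2 CPM), by 0.29 ± 0.08, or by 0.18 ± 0.09 without TGFB1 r1. Past the threshold were 8 of 10 genes for TGFB1 and 5 of 10 for TGFBRi, beside 14.9% and 2.81% of 17914 genes, and again nothing is read from these counts. The 8 became 5 without the replicate term, Control r1 or TGFB1 r1, and the 5 became 2 without the replicate term or Control r2 and 3 with DESeq2 or without Control r1.

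Primed cells held more PMEPA1 than drug-susceptible cells in each of the 8 treated libraries. In Control the levels were 73.8 and 72.4 CPM in primed cells, and with TGFB1 they were 1115 and 1145 CPM. Primed cells treated with TGFBRi were at 7.33 and 11.9 CPM, below the primed cells of every other library. PI3Ki gave 35.0 and 61.2 CPM, from only 25 and 70 primed cells. The effect of TGFB1 (against Control, log2 scale) was smaller in primed than in drug-susceptible cells for PMEPA1, by −0.78 ± 0.14, in cells whose level in Control was higher to begin with. It was larger in primed cells for SMAD7, by 0.84 ± 0.17, and for SKI, by 0.81 ± 0.17. SMAD7 went from 20.9 and 27.0 CPM in primed Control cells to 85.6 and 95.6 CPM with TGFB1. SKI went from 18.6 and 25.8 CPM to 49.4 and 51.04 CPM. BAMBI moved in opposite directions, being lower with TGFB1 in primed cells (21.3 and 22.9 CPM against 26.1 and 41.0 CPM) and higher with it among the drug-susceptible ones, and the effects differed by −0.79 ± 0.17, or by −0.41 ± 0.29 without Control r2. The difference for SMAD3 was 0.58 ± 0.18 and for SMURF2 0.30 ± 0.13. In all 5 of 10 genes were past the threshold, beside 9.98% of 18502 genes, and nothing is read from this count, since the states were called from the same counts and states and treatments chose the genes. The 5 became 3 without Control r2 or TGFB1 r1. The primed cells compared were not of the same clusters: with TGFB1, 1548 of 1577 and 1706 of 1757 lay in cluster 4, and in Control 89 of 94 and 159 of 165 lay in cluster 10. For BAMBI, both TGFB1 libraries were below both Control libraries in 0 of the 7 clusters compared below, cluster 10 among them.

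The authors' clusters, numbered as they gave them, show the levels within smaller groups of cells. Cluster 4, which was nearly all from the TGFB1 libraries, held the most PMEPA1 at 1147 CPM, and also the most SKIL (117 CPM), SMAD7 (92.1 CPM), SMURF2 (149 CPM) and SKI (50.4 CPM). SMAD3, SMAD4 and SMAD6 were likewise at their highest there, and BAMBI was at its lowest of the 13 clusters, at 21.0 CPM. Cluster 3, of drug-susceptible cells that also came mostly from the TGFB1 libraries, held 196 CPM of PMEPA1 and 40.2 CPM of SKIL. In cluster 10, the primed cells found under every treatment, PMEPA1 was at 63.6 and 72.0 CPM in Control, 166 and 161 CPM with TGFB1 and 7.33 and 11.9 CPM with TGFBRi. Even cluster 0, of drug-susceptible cells, held 3.01 and 4.01 CPM in Control against 33.0 and 26.1 CPM with TGFB1 and 0.765 and 0.965 CPM with TGFBRi. Of 7 clusters with at least 20 cells in each of the 6 libraries of Control, TGFB1 and TGFBRi, both TGFB1 libraries were above both Control libraries in 7 for PMEPA1 and in 7 for SKIL. Both TGFBRi libraries were below both Control libraries in 7 clusters for PMEPA1 and in 6 for SKIL. The order held in fewer clusters for the other genes, TGFB1 being above Control in 5 for SMAD7, 4 for SKI, 4 for SMURF2, 2 for SMAD6 and 0 for SMAD4, and TGFBRi below it in 3, 6, 3, 4 and 2. SMAD6 was below Control with TGFB1 in 2 clusters and SMAD4 in 1. SMAD3 ran the other way, with TGFB1 below Control in 5 clusters and TGFBRi above it in 6. BAMBI was above Control with TGFB1 in 6 clusters and below it in 0. The lowest PMEPA1 of these clusters in the TGFB1 libraries, 28.2 and 21.5 CPM in cluster 5, lies well under the 384 and 382 CPM of the whole libraries, and how much of it is free RNA from other cells was not tested.

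**Figure D3:**
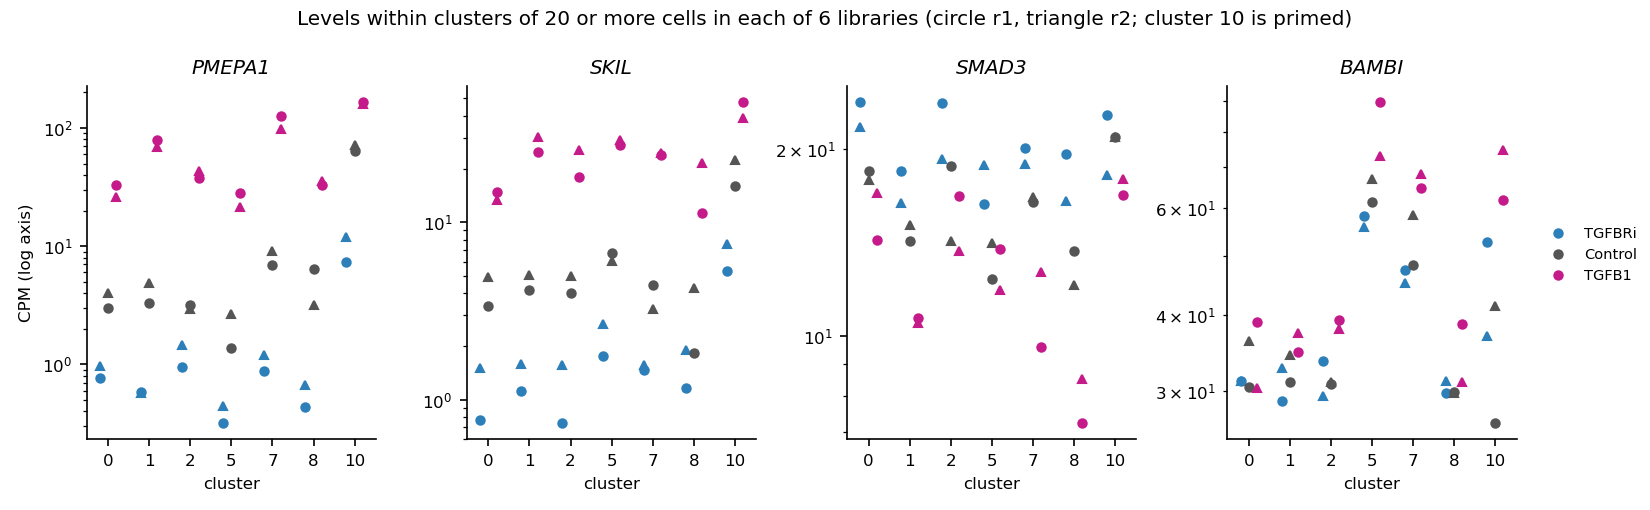
Levels of PMEPA1, SKIL, SMAD3 and BAMBI, in CPM on a log axis, in the 7 clusters with at least 20 cells in each library of TGFBRi, Control and TGFB1, with 1 point a library. For PMEPA1 the 3 treatments keep the same order in all 7 clusters, and for SMAD3 the points lie close together with TGFBRi above Control in 6.

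With PI3K inhibition the genes lay close to Control, and these values too are a description. Melanocytic markers summed to 6138 and 6544 CPM with PI3Ki, above Control, and fibroblast markers to 21.2 and 20.8 CPM against 29.9 and 30.4 CPM, and their part was not tested. PMEPA1 was lower by −0.55 ± 0.13 on the log2 scale, at 2.93 and 4.17 CPM against 4.79 and 6.56 CPM. SMAD3 was lower by −0.31 ± 0.07, at 12.6 and 11.3 CPM against 16.3 and 15.3 CPM. Both values of either gene with PI3Ki lay under both Control values. The other 8 genes lay between −0.17 ± 0.07 for SMURF2 and 0.24 ± 0.11 for SKIL. Past the threshold were 2 of 10, both lower, beside 12.7% of all genes (5.83% higher and 6.83% lower), with 0 without the replicate term, Control r2 or PI3Ki r1 and 1 by DESeq2 or without Control r1 or PI3Ki r2. The median of the 10 genes was 0.013 beside 0.003 over all genes, and nothing is read from these counts either.

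In drug-susceptible cells alone, PI3Ki left PMEPA1 at 2.80 and 3.71 CPM against 3.58 and 4.45 CPM. The difference of −0.17 ± 0.15 was of about the size of its error, and became 0.03 without Control r2, 0.06 without PI3Ki r1, −0.34 without Control r1 and −0.51 without PI3Ki r2. Primed cells were 0.647% and 1.21% of the PI3Ki libraries against 2.26% and 4.47% of Control. SMAD3 was lower by −0.29 ± 0.07 there too, at 12.5 and 11.3 CPM against 16.1 and 15.2 CPM, and SKIL was higher by 0.33 ± 0.11. Past the threshold was 1 of 10 genes, beside 12.1% of all genes, with 0 without the replicate term or any 1 library of Control or PI3Ki, and 2 with no filter on low counts or without any 1 library of TGFB1 or TGFBRi.

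Untreated WM989 cells showed which members went with the primed state when no ligand was added. PMEPA1 ranged over the 8 wells from 1.53 to 8.41 CPM (median 4.43) among the drug-susceptible cells, and its range in primed cells was 25.5 to 46.0 CPM (median 35.5). The states did not overlap, and the ratio within a well lay between 5.02 and 16.7. Over all wells the levels were 3.04 CPM (95% exact Poisson interval 2.90 to 3.19, counting error only) and 35.3 CPM (34.4 to 36.1), a ratio of 11.6. SKIL ranged from 2.94 to 12.9 CPM (median 5.89) and from 17.3 to 32.3 CPM (median 28.1), and was higher in primed cells in 8 of 8 wells. SMURF2 ranged from 8.97 to 17.2 CPM (median 13.4) and from 36.5 to 103 CPM (median 59.99), again with no overlap. SMAD7 was higher in primed cells in 8 of 8 wells, although its range of 0.959 to 5.41 CPM (median 2.50) in drug-susceptible cells met that of 4.23 to 23.3 CPM (median 11.8) in primed cells.

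SMAD3 and BAMBI, whose sums over all cells differed little between TGFB1 and Control, differed between the untreated states. SMAD3 ranged from 8.08 to 13.0 CPM (median 9.80) among the drug-susceptible cells and from 19.2 to 53.3 CPM (median 28.1) among the primed ones. The states did not overlap, and the ratio over all wells was 3.55. In the treated experiment the states of SMAD3 overlapped, with ratios within a library from 0.732 to 2.02. There it was lower in primed cells in 2 of 8 libraries. BAMBI was the member lower in primed cells, from 71.0 to 134 CPM (median 77.3) down to 22.2 to 41.1 CPM (median 28.1), lower in 8 of 8 wells and with a ratio of 0.338. In the treated experiment it was lower in primed cells in 3 of 8 libraries only, namely both TGFB1 libraries and Control r1, with ratios from 0.454 to 1.53. SKI, SMAD2, SMAD4 and SMAD6 had overlapping states, with ratios of 1.15, 1.13, 1.01 and 1.11, and were higher in primed cells in 6, 5, 2 and 3 wells of 8. Cells and their states came from the same counts, so no test was made between them.

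**Figure D4:**
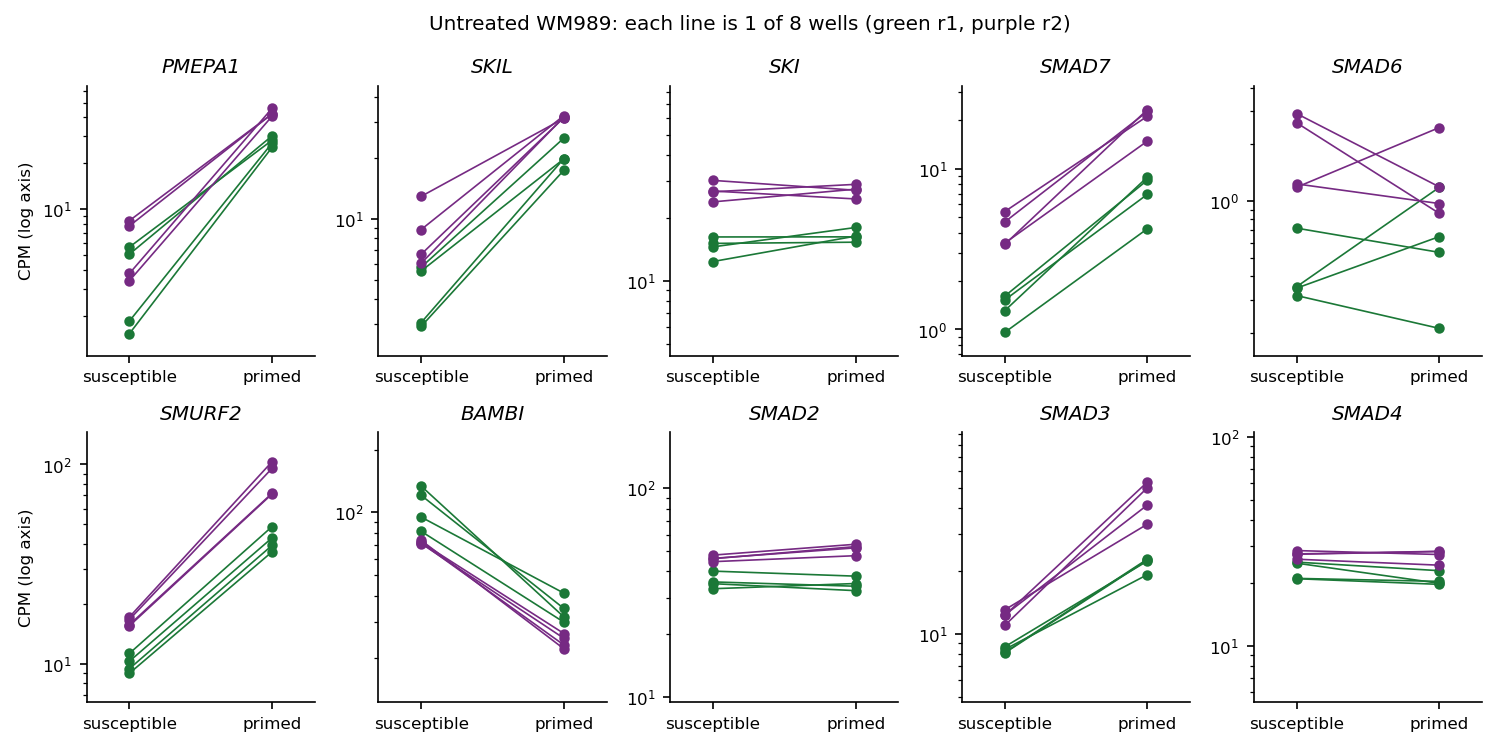
Level of each gene in drug-susceptible and primed cells of untreated WM989, in CPM on a log axis, with 1 line for each of 8 wells, green for r1 and purple for r2. The lines climb in all 8 wells for PMEPA1, SKIL, SMAD7, SMURF2 and SMAD3, and fall in all 8 for BAMBI.

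The wells of the replicates differed in level. In primed cells SMAD7 was at 7.09 CPM over the r1 wells and 21.3 CPM over the r2 wells, SMAD3 at 21.8 and 48.9 CPM, and SMURF2 at 43.1 and 94.2 CPM. In drug-susceptible cells SKI was at 13.7 CPM in r1 and 26.8 CPM in r2. The 6 genes that differed in one direction in all 8 wells kept the order of the states in both replicates. For PMEPA1 the ratio of primed to drug-susceptible cells was 12.03 in r1 and 10.2 in r2. The share of all genes with one direction in all 8 wells was not counted. States were called from these counts and the wells are not separate cultures, so nothing is read from the 6. SMAD6, with ratios of 1.49 and 0.822, and SMAD4, with 0.944 and 1.02, did not keep their order. BAMBI further divided the clusters of untreated cells: the primed clusters 2, 8 and 9 held 32.9, 36.4 and 14.4 CPM, and the drug-susceptible clusters between 65.3 and 157 CPM. PMEPA1 was nearly level over the same primed clusters, at 36.0, 35.1 and 33.6 CPM. BAMBI also went with the cell cycle phase that the authors assigned, at 100.1 CPM in G1, 60.3 CPM in S and 111 CPM in G2M among drug-susceptible cells.

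WM983B, a second line profiled in 1 library with 718 drug-susceptible and 731 primed cells, held far more PMEPA1 than untreated WM989. Drug-susceptible cells had a level of 308 CPM (95% exact Poisson interval 303 to 312) and primed cells one of 594 CPM (587 to 601), a ratio of 1.93. SMAD3 was at 33.5 and 65.2 CPM, SKIL at 47.1 and 70.3 CPM, SMAD7 at 7.44 and 12.7 CPM and SMURF2 at 20.2 and 34.7 CPM, each higher in primed cells. SMAD6, at 1.52 CPM (1.21 to 1.89) and 1.99 CPM (1.61 to 2.42), had a ratio of 1.31 with intervals that overlap. BAMBI, at 117 and 120 CPM, was not lower there. SKI (34.8 and 33.9 CPM) and SMAD2 (67.6 and 65.6 CPM) were close between the states, and SMAD4 (50.2 and 56.5 CPM) had a ratio of 1.13. With 1 library, these intervals cover counting error only and no test between the states was possible. The libraries of the lines were also made in separate experiments, so line and experiment cannot be told apart.

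The genes whose level followed PMEPA1 most closely over the 8 treated libraries were FRMD6, STK17B, MCFD2, SMAD7 and TJP1, by Pearson's r of log2(CPM + 1) centred within each replicate, among 7839 genes with a mean of at least 10 CPM. The values of r were 0.999, 0.997, 0.996, 0.996 and 0.996, over 8 libraries that share their treatments, and are a description. FRMD6 ran from 97.9 and 98.1 CPM in Control to 205 and 208 CPM with TGFB1 and 81.7 and 79.9 CPM with TGFBRi. Of the other members, SKI was at rank 32, SKIL at 45 and SMURF2 at 107, while SMAD4 was at 488, BAMBI at 1594, SMAD3 at 4363 and SMAD2 at 4659.

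Around the 10 genes, the other parts of the pathway were tested as 6 lists, in edgeR over all cells. The lists were chosen with earlier results of these data known. Their counts are given beside the 16.3% of all genes that were higher and the 12.7% that were lower with TGFB1. Among TGF-β target genes, 16 of 20 rose and 1 fell, with a median log2 fold change of 1.74. The collagen gene COL1A1 rose from 1.101 and 1.65 CPM to 43.6 and 48.3 CPM (5.06 ± 0.12, adjusted p = 4.3e-18, edgeR). TGFBI, a matrix protein named for its induction, went from 0.0128 and 0.0499 CPM to 4.84 and 4.103 CPM (adjusted p = 5.7e-14, edgeR). CDKN2B, an inhibitor of CDK4 and CDK6, was the one that fell, by 0.58 ± 0.08, and SNAI1, SNAI2 and ITGB6 did not pass (adjusted p = 0.459, 0.647 and 0.368, edgeR).

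Of 8 ligands tested of 18 listed, 4 rose and 1 fell (median 0.13), and the 4 became 2 without the replicate term, Control r2 or TGFB1 r1. TGFB1 itself, whose recombinant protein was added, rose as a transcript from 17.0 and 15.5 CPM to 41.8 and 39.4 CPM (1.305 ± 0.07, adjusted p = 3.1e-12, edgeR), and INHBA, an activin subunit, rose from 0.230 and 0.187 CPM to 2.38 and 1.74 CPM (adjusted p = 3.3e-10, edgeR). GDF11, a ligand that signals through the same SMADs, fell by 0.47 ± 0.06. Receptors went both ways, with 4 of 13 up and 4 down (median −0.11). TGFBR2, which binds TGF-β first, rose from 6.17 and 6.86 CPM to 13.4 and 13.7 CPM (adjusted p = 3.3e-09, edgeR), and the coreceptor TGFBR3 fell by 1.21 ± 0.10, from 8.57 and 9.05 CPM to 3.23 and 4.47 CPM. ACVR1C, an activin-type receptor, fell by 0.91 ± 0.07.

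Other regulators of SMADs gave 5 up and 3 down of 17 (median −0.03). The corepressor TGIF1 rose from 5.57 and 6.86 CPM to 16.5 and 17.9 CPM (1.46 ± 0.09, adjusted p = 1.4e-11, edgeR), as did LDLRAD4, a membrane protein related to PMEPA1 that also binds SMAD2 and SMAD3, by 1.21 ± 0.14. NEDD4L, a ubiquitin ligase of active SMADs, fell by 0.86 ± 0.07, from 141 and 136 CPM to 69.9 and 84.9 CPM. Among latency proteins and antagonists, 7 of 11 tested rose and 1 fell (median 0.57; 0 fell without TGFB1 r1), with LTBP2 (3.92 ± 0.19), THBS1 (3.75 ± 0.17) and LTBP1 (2.31 ± 0.17) the largest. THBS1, which can release TGF-β from its latent form, went from 1.86 and 4.52 CPM to 39.9 and 43.2 CPM (adjusted p = 1.2e-13, edgeR). LTBP2 is on the list of targets as well.

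The 6 BMP target genes split into 4 up and 2 down with TGFB1 (median 0.54). ID3, a helix-loop-helix repressor, rose from 40.5 and 47.1 CPM to 78.7 and 74.5 CPM (0.80 ± 0.08, adjusted p = 4.0e-08, edgeR) and HEY1, a Notch- and BMP-responsive repressor, by 0.71 ± 0.06, while ATOH8 was at 0.256 and 0.312 CPM in Control and at 0.113 and 0.0943 CPM with TGFB1 (adjusted p = 0.0075 in edgeR, 0.0783 in DESeq2 and 0.160 without TGFB1 r2). With TGFBRi, ID3 fell to 5.70 and 5.39 CPM (−2.97 ± 0.09, adjusted p = 2.7e-15, edgeR). PI3Ki moved it the other way, to 129 and 148 CPM (1.76 ± 0.08, adjusted p = 1.6e-12, edgeR).

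In drug-susceptible cells alone, where 14.9% of all genes passed in place of 29.0%, fewer genes of each list rose with TGFB1. There 11 of 20 targets rose and 1 fell (median 0.75), 4 of 11 latency proteins and antagonists rose and 1 fell (median 0.33), and 2 of 6 BMP targets rose and 1 fell (median −0.02). Of the ligands 3 rose and 1 fell, of the receptors 2 rose and 4 fell, and of the regulators of SMADs 4 rose and 3 fell.

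Under TGFBRi, where 2.54% of all genes passed, the counts were 2 of 20 targets, both lower (0 without the replicate term or Control r2, and 1 by DESeq2 or without Control r1 or TGFBRi r1), 4 of 6 BMP targets, 2 of 13 receptors, 1 of them higher (which was lost without the replicate term or Control r2), and 1 of 17 regulators of SMADs, namely TGIF1 (−0.52, adjusted p = 0.0037, edgeR), whose adjusted p was 0.298 without the replicate term. That regulator was also lost without Control r2, and 1 was higher without TGFBRi r2. Of the 8 ligands and of the 11 latency proteins and antagonists edgeR called 0, with 2 and 5 at an unadjusted p below 0.05, and DESeq2 also called 0 of both. With no filter on low counts or without TGFBRi r2, 1 ligand was higher and 1 latency protein or antagonist lower, the latter also without Control r1 or either TGFB1 library. Under PI3Ki, where 5.83% of all genes were higher and 6.83% lower, 3 of 20 targets rose and 9 fell (3 and 6 in drug-susceptible cells), COL1A1 among them by 2.48 ± 0.25 (adjusted p = 6.0e-07, edgeR). The 3 became 0 without the replicate term or Control r1, and 1 without either PI3Ki library. Of the BMP targets 4 of 6 rose and 1 fell, and of the receptors 1 of 13 rose and 4 fell, which became 1 lower without the replicate term, Control r2 or either PI3Ki library and 2 without Control r1. Without either TGFBRi library, 2 receptors and 1 ligand rose. Of the 8 ligands 2 fell (1 without the replicate term, Control r1 or either PI3Ki library, and 0 without Control r2), and of the 11 latency proteins and antagonists 1 rose and 1 fell, both lost without the replicate term. The rise was also lost by DESeq2 and without Control r2 or either PI3Ki library, and 2 fell with no filter on low counts and without Control r1, PI3Ki r2 or any 1 of the TGFB1 and TGFBRi libraries. Of the regulators of SMADs edgeR called 0 of 17, with 0 at an unadjusted p below 0.05, and DESeq2 called 0.

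Open chromatin near the 10 genes was compared between sorts of untreated WM989, a measure that did not choose them. Open regions were merged from the peaks of at least 3 of 12 libraries, the value of a region is its highest fold enrichment over the local background, and 94 regions overlapped the genes or 10 kb on either side. Of these, 46 had a peak in all 12 libraries and could be tested, among 78211 such regions. The region 24.7 kb downstream of the start of PMEPA1 (chr20:57685003-57685600, the window with GTCTAGAC) was at 12.5, 10.4 and 8.23 in Mix, 10.7, 12.8 and 13.7 in EGFR_High, 18.7, 13.1 and 18.3 in NGFR-High and 21.7, 17.96 and 14.9 in EGFR-NGFR-High. NGFR-High and EGFR-NGFR-High did not overlap Mix, while EGFR_High did. The log2 difference from Mix was 0.76 ± 0.19 in EGFR-NGFR-High (adjusted p = 0.0162, limma with Benjamini-Hochberg adjustment) and 0.67 ± 0.19 in NGFR-High (0.0320). The former was lost without EGFR-NGFR-High 1 (0.0705) or 2 (0.0561) or Mix 3 (0.0667), and the latter without Mix 2 (0.0874) or 3 (0.141) or NGFR-High 1 (0.153) or 3 (0.108). The start of PMEPA1 itself (chr20:57708975-57710870) was at 38.1, 29.2 and 34.4 in Mix and 53.6, 45.4 and 34.7 in EGFR-NGFR-High, and differed in no sort past the threshold (adjusted p = 0.195, 0.225 and 0.872 against Mix in EGFR-NGFR-High, NGFR-High and EGFR_High, limma).

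In SMAD3, a region in intron 1, 44.1 kb downstream of the start (chr15:67109338-67110002), was at 11.2, 8.95 and 6.29 in Mix, 12.8, 12.8 and 11.7 in EGFR_High, 17.5, 14.9 and 13.6 in NGFR-High and 24.1, 15.6 and 10.9 in EGFR-NGFR-High. EGFR-NGFR-High overlapped Mix, while NGFR-High and EGFR_High did not, and EGFR_High was not past the threshold. The region was higher than Mix in EGFR-NGFR-High by 0.85 ± 0.23 (adjusted p = 0.0264, limma) and in NGFR-High by 0.81 ± 0.23 (0.0341). The former was lost without EGFR-NGFR-High 1 (0.124) or 2 (0.0660) or Mix 2 (0.0511) or 3 (0.101), and the latter without Mix 2 (0.0733) or 3 (0.144) or NGFR-High 1 (0.138) or 2 (0.0748). A region in intron 3 of SMAD7, 21.9 kb downstream (chr18:48928508-48929576), was at 17.0, 25.9 and 22.7 in Mix and 40.2, 30.2 and 39.5 in NGFR-High. It was higher in NGFR-High by 0.73 ± 0.21 (adjusted p = 0.0387, limma), but EGFR-NGFR-High, at 41.4, 20.3 and 25.8, overlapped Mix (0.386). The call in NGFR-High was lost without Mix 1 (0.155) or 3 (0.0783), NGFR-High 1 (0.147) or 3 (0.112), EGFR_High 1 (0.0507) or 2 (0.0561), or EGFR-NGFR-High 3 (0.0539), and also with no centring (0.0543).

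**Figure D5:**
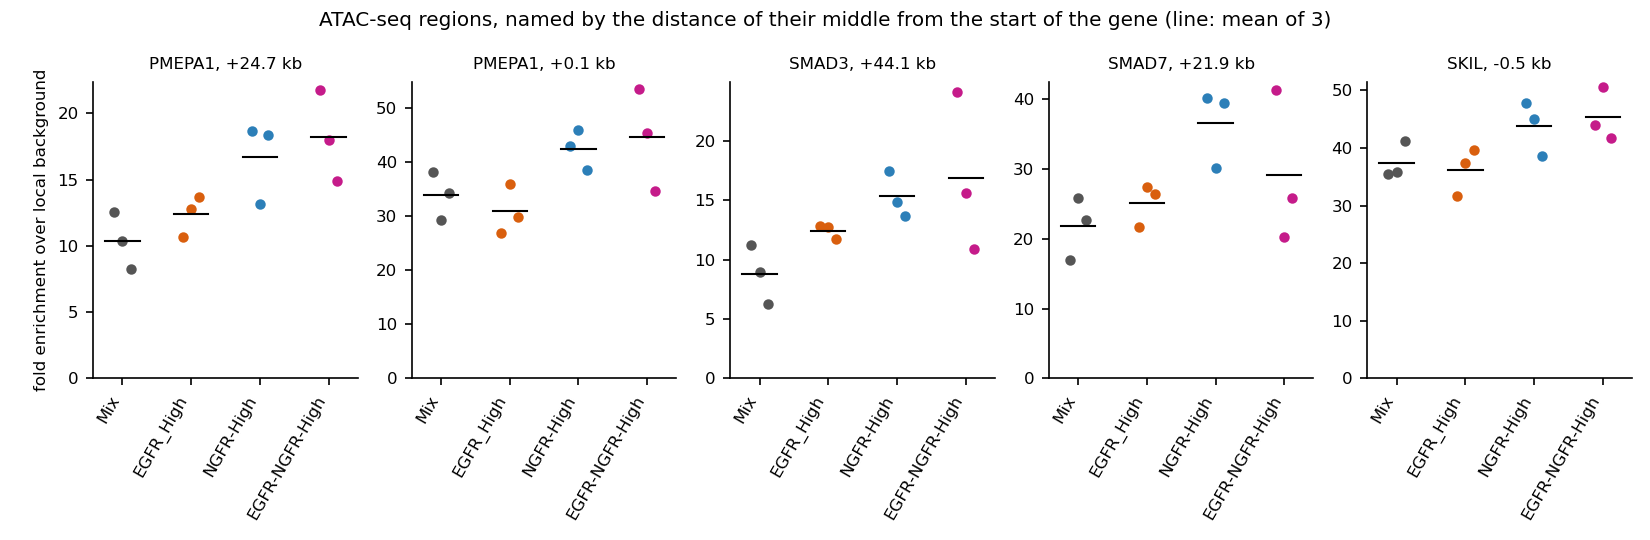
Fold enrichment over the local background of 5 regions of PMEPA1, SMAD3, SMAD7 and SKIL in the 4 sorts of untreated WM989, with 1 point a library and a line at the mean of 3. The NGFR-High and EGFR-NGFR-High libraries of PMEPA1 at 24.7 kb lie between 13.1 and 21.7, and those of Mix between 8.23 and 12.5.

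The calls numbered 3 of 46 regions in EGFR-NGFR-High and 4 of 46 in NGFR-High, all higher, beside 12.7% and 12.2% of all regions (7.35% and 7.0% higher). The share among the members is near that of all regions, and nothing is read from it. For EGFR_High against Mix the count was 0 (limma, with 6 at an unadjusted p below 0.05), beside 5.83% of all regions, and for EGFR_High against NGFR-High it was 0 (with 3), beside 0.69%. Each of the 7 calls was lost on leaving out at least 1 of the 12 libraries. The regions at the starts of the genes, where SKIL, SMAD6, SMAD7 and the others were open in all sorts, gave no call. The lowest adjusted p was 0.0717, for SMAD3 in EGFR-NGFR-High (limma). That region was lower in EGFR-NGFR-High, at 37.8, 27.4 and 26.8 against 40.8, 33.9 and 43.6 in Mix. Over the 7 tested regions of SMAD3, the median log2 difference of EGFR-NGFR-High from Mix was −0.13. The SMAD6 promoter printed above lies in the region at its start (chr15:66700550-66703231), which differed from Mix by 0.08 ± 0.15 in EGFR-NGFR-High (adjusted p = 0.782, limma). Most of the SMAD7 promoter lies in a region (chr18:48951008-48951255) that had a peak in 6 of 12 libraries, 1 of them Mix, and could not be tested. The next region upstream (chr18:48951303-48953395) differed by 0.40 ± 0.14 (adjusted p = 0.0766, limma).

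The other 48 regions near the genes had a peak in some libraries only, and a missing peak is not a measured 0. Of these, 20 had no peak in Mix (41.7%, beside 27.4% of 73637 such regions in the genome), and 12 were in at least 5 of the 9 marker-high libraries with no peak in Mix (25% beside 12.8%). SMAD3 held several. Its region 41.6 kb downstream (chr15:67106919-67107407) had a peak in all 9 marker-high libraries, at 15.2, 14.6 and 12.9 in EGFR-NGFR-High, 17.1, 11.4 and 7.99 in NGFR-High and 7.68, 6.62 and 6.85 in EGFR_High, and none in Mix. A further region at 60 kb (chr15:67125297-67126005) was also in all 9, between 4.73 and 8.51, and absent from Mix. The other way, 1 of the 48 had a peak in all 3 Mix libraries and in at most 2 marker-high ones, beside 1605 of the 73637. Regions entered with a peak in at least 3 of 12 libraries, of which 9 were marker-high and 3 Mix. The counts in the 2 directions also used unlike cutoffs, so they cannot be set against each other. Another SMAD3 region (chr15:67087442-67087842) had a peak in all 3 Mix libraries, at 14.3, 7.54 and 5.81. Some marker-high libraries had a peak there too, between 3.87 and 6.998. These shares were not tested.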

How the data were processed

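The single-cell tables that the authors deposited hold UMI counts for every gene in every cell, from Cell Ranger with hg38 (version not given in the sources used here) and filtered for genes and mitochondrial reads, with doublets of many genes removed; no doublet caller was run here. States, clusters and phases are the authors' labels. Counts were summed per library and scaled to CPM, with exact Poisson intervals at 95%. The 8 treated libraries were tested with edgeR 4.0.16 (R 4.3.3; filterByExpr, TMM factors 0.941 to 1.05, quasi-likelihood test, two-sided, terms for treatment and replicate, 3 residual degrees of freedom, Benjamini-Hochberg threshold 0.05). The SE is the log2 fold change over the root of F. The effect of TGFB1 by state was fitted on sums per library and state with library as a block, from libraries with at least 20 primed cells.

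For ATAC-seq the deposited peak lists come from Bowtie2 2.3.4.1, SAMtools 1.1 and MACS2 2.1.1.20160309 on hg38, called per library by the authors. Their fold enrichment, a ratio over the local background, was used as a log2 value centred on the median of each library in limma 3.58.1. The −log10 of the q-value in the same deposited lists served an alternative. Peaks merged on 1 overlapping base, present in at least 3 of 12 libraries, made 151848 regions. Depth in reads is not known for these lists, which held 148575 to 180941 distinct peaks each. Gene models are GENCODE v44, promoters RefSeq.

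Named are the 10 members, the regions within 10 kb of them, the 3 genes of each list with the largest change past the threshold with TGFB1, and the 5 genes most like PMEPA1; 1 listed gene and 1 region, kept in the counts, are not reported here, and SNAI1, SNAI2, ITGB6 and CDKN2B were chosen after their values were seen. Members and lists were chosen with earlier results of these data known. Sample titles call the replicates Mix and Primed and cell labels r1 and r2, and how these correspond could not be settled. Cells of a well were split over the 4 treatments per the methods, and r2 minus r1 correlated between treatments by 0.246 to 0.366, so replicate was a term. The methods describe the replicates as 2 samples handled side by side, the labels do not say that they were separate cultures, and p-values measure the spread between these libraries. Both procedures were tested on simulated data. Alternatives were DESeq2 1.42.0, no replicate term, no filter on low counts, other peak rules and each library left out.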

Additional observations from a re-analysis of the deposited data

Results flagged for a closer look

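In primed cells of untreated WM989, SMAD6 stood apart in 1 well of r2, at 2.45 CPM from 22 UMIs, where the next of the 8 wells was at 1.19 CPM. Of 20 groups of wells examined 1 was marked in this way, and chance marks about 1 in 20.

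BAMBI moved in opposite directions with TGFB1 in the states of treated WM989. A member was marked here if both replicates moved one way in primed cells and the other way in drug-susceptible cells. The directions below therefore restate that rule. Of the 10 members 1 was marked, and how often chance would mark one was not worked out. In primed cells both TGFB1 libraries were lower than the Control library of the same replicate (21.3 against 26.1 CPM, and 22.9 against 41.0 CPM), and in drug-susceptible cells both were higher. The effects differed by −0.79 on the log2 scale, and by −0.41 without Control r2. The difference is given without a test, because states and treatments chose the gene. Primed cells lay mostly in cluster 4 with TGFB1 and in cluster 10 in Control. Cluster 10 was among the 7 clusters with at least 20 cells in each library of Control, TGFB1 and TGFBRi. For BAMBI, both TGFB1 libraries were below both Control libraries in 0 of these 7 clusters and above them in 6.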

How the results depend on the processing

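Signs were compared for the members, the named genes of the lists and the called regions of the members. Among these, no value past its threshold changed sign under an alternative. The signs of all other genes and regions were not compared. Without the replicate block, edgeR called 649 genes for PI3Ki in all cells and 570 in drug-susceptible cells, 40 and 47 for TGFBRi, and 1189 for TGFB1 in drug-susceptible cells, against 2328, 2170, 467, 503 and 2665 with it. For TGFBRi, no filter on low counts gave 748 in all cells, and DESeq2 gave 329 in drug-susceptible cells. Leaving out 1 library gave 719 to 3301 genes for PI3Ki in all cells and 632 to 3286 in drug-susceptible cells, 3165 to 6377 and 988 to 3722 for TGFB1, 168 to 1146 and 206 to 1247 for TGFBRi, and 825 to 1246 for the difference of TGFB1 between states. Between 8 and 9 of the 10 members were higher with TGFB1 than with TGFBRi in all of these. Nothing is read from that count, since this contrast chose the genes.

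Of the ATAC regions, leaving out 1 library gave 5577 to 10217 calls for EGFR-NGFR-High against Mix, 4563 to 9691 for NGFR-High, 1662 to 4676 for EGFR_High and 25 to 529 for EGFR_High against NGFR-High. The last was 540, and 2192 with no centring or 817 with the replicate block. Replicate numbers were not a term in the main ATAC fit. Of 18 pairs of the same number, 9 correlated by over 0.1, and the values ran from −9.7e-05 to 0.174. For the other comparisons the block gave 11245, 10901 and 5705 calls, against 9914, 9507 and 4560 without it. It also passed SMAD3 at 44.1 kb in EGFR_High (0.0200). No centring turned the calls of EGFR_High against Mix from 3139 of 4560 higher to 1491 of 6266, and those against NGFR-High from 228 of 540 to 112 of 2192. Cutting peaks to 100 bases on each side of the summit ended the NGFR-High calls of PMEPA1 at 24.7 kb (0.0775), SMAD3 (0.0579) and SMAD7 (0.0894). The cause of these shifts was not tested.

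Counting limits SMAD6, and primed cells were as few as 25 in a library. With 2 libraries a treatment and 3 a sort, small differences could not be told from the spread, and fold enrichment of called peaks carries no value where no peak was called.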
